A study of Mus musculus with 8 samples.

Results

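CD96, TIGIT and their shared ligand PVR were followed in 4MOSC1 tumours that had been injected with the chemokine CXCL10 or with vehicle. The 3 genes, Cd96 (Entrez 84544), Tigit (Entrez 100043314) and Pvr (Entrez 52118), were selected by name from the 693 genes with a level in every tumour, with their levels in these tumours already known. Their differences between the groups are therefore given as a description, without a test. All 3 had a measured level in all 8 tumours.

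4MOSC1 is a mouse line of oral squamous cell carcinoma, and RNA of whole tumours was counted with a probe panel of mostly immune genes. The CXCL10 group was 4 tumours injected with 10 µg of CXCL10 in 50 µl of PBS 3, 6 and 9 days after the cells were implanted. For vehicle, 4 tumours had 50 µl of PBS on the same days. Hosts of both groups were female C57BL/6N mice aged 4 to 6 weeks, which carried implanted cells of this 1 line in the cheek and had their own immune system. The sample titles give day 10 as the day of collection for all tumours, while the source labels give days 14 to 17 for CXCL10 and 10 to 13 for vehicle tumours. If the source labels were right, treatment and day cannot be told apart. The labels do not say whether each tumour grew in a separate mouse, so SD and SE measure the spread between these tumours.

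CD96 and TIGIT are surface receptors of T cells and NK cells, and both bind PVR (also called CD155), a nectin-like adhesion molecule found on tumour cells, myeloid cells and endothelium. The activating receptor CD226 binds the same ligand, and TIGIT competes with it. TIGIT carries an inhibitory tyrosine motif in its tail and restrains T and NK cells, and mouse CD96 restrains interferon gamma release by NK cells. Nectin-2 (CD112), which the panel lists under its older symbol Pvrl2 (Entrez 19294), is a second ligand of CD226 and binds TIGIT weakly.

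Tigit and Cd96 lie on the same mouse chromosome, as do Pvr and Nectin2, and the sequence just upstream of each receptor gene is shown because both receptors are carried by the same lymphocytes. Each is the 250 bases before the gene's start as RefSeq lists it on GRCm38.p6, at chr16:43664185-43664434 on the minus strand for Tigit and chr16:46120249-46120498 on the minus strand for Cd96. Capitals mark matches on either strand to the letters of 5 motifs.
Tigit: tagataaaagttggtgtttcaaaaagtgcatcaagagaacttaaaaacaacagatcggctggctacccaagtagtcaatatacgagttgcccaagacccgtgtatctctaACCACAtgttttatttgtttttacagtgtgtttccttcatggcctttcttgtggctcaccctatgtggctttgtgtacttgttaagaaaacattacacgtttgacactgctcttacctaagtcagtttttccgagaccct
Cd96: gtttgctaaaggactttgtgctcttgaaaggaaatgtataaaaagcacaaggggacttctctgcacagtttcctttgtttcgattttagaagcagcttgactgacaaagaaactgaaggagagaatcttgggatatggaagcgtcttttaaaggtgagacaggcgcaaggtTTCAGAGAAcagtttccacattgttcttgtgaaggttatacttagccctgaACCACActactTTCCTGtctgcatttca

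The window of each receptor gene held 1 match to TGTGGT, the letters of the RUNX motif, which starts 140 bases before the gene start in Tigit and 28 bases before it in Cd96. Of 32851 promoter windows of this length, 14.05% held such a match. The Cd96 window also held 1 match to TTCNNNGAA, the letters of the STAT motif (7.02% of windows), and 1 to CAGGAA, a version of the ETS motif (25.71% of windows). Neither window held TGANTCA of AP-1 (6.75% of windows) or AGGTGTGA of T-box factors (1.12%). None of the matches overlapped another. In the RefSeq gene table of GRCm38.p6, 33 protein-coding genes lie between Tigit and Cd96, and 3 of them were measured. Btla and Cd200r1, both inhibitory receptors, had log2 differences of 0.25 (SE 0.15) and 0.13 (SE 0.14), and Cd200, the ligand of the second, one of -0.12 (SE 0.13), with limma adjusted p from 0.394 to 0.646. Between Nectin2 and Pvr lie 6 protein-coding genes, of which 0 were measured.

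Whole probe counts, recovered from the deposited values, summed to 1028938 to 1167694 per CXCL10 tumour and 973697 to 1021358 per vehicle tumour. The deposited levels are log2 values of counts scaled by 1 factor per tumour. The median log2 difference of all 693 genes, CXCL10 minus vehicle, was 0.13 as the authors scaled them, 0.02 after median-of-ratios scaling and 0.05 after panel median centring, and 482 of the 693 genes (69.6%) had a higher mean in CXCL10 tumours. CXCL10 tumours 2 and 4 had the highest panel medians, at 8.87 and 8.84, against 8.58 and 8.68 in CXCL10 tumours 1 and 3 and 8.60 to 8.74 in vehicle tumours.

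Cd96, which encodes an adhesion receptor of T and NK cells, was the 1 gene of the 3 whose groups did not overlap in log2 level. Its probe gave 34, 33, 40 and 37 counts in CXCL10 tumours 1 to 4, against 20, 19, 23 and 16 counts in vehicle tumours 1 to 4. The log2 levels were 4.97, 5.15, 5.24 and 5.17 in CXCL10 tumours, against 4.34, 4.38, 4.48 and 4.04 in vehicle tumours. Every CXCL10 tumour thus lay above every vehicle tumour on both scales. Mean levels were 5.13 ± 0.12 in CXCL10 and 4.31 ± 0.19 in vehicle tumours (SD, n = 4 each), a log2 difference of 0.82 (SE 0.13) or 1.77-fold.

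**Figure D1:**
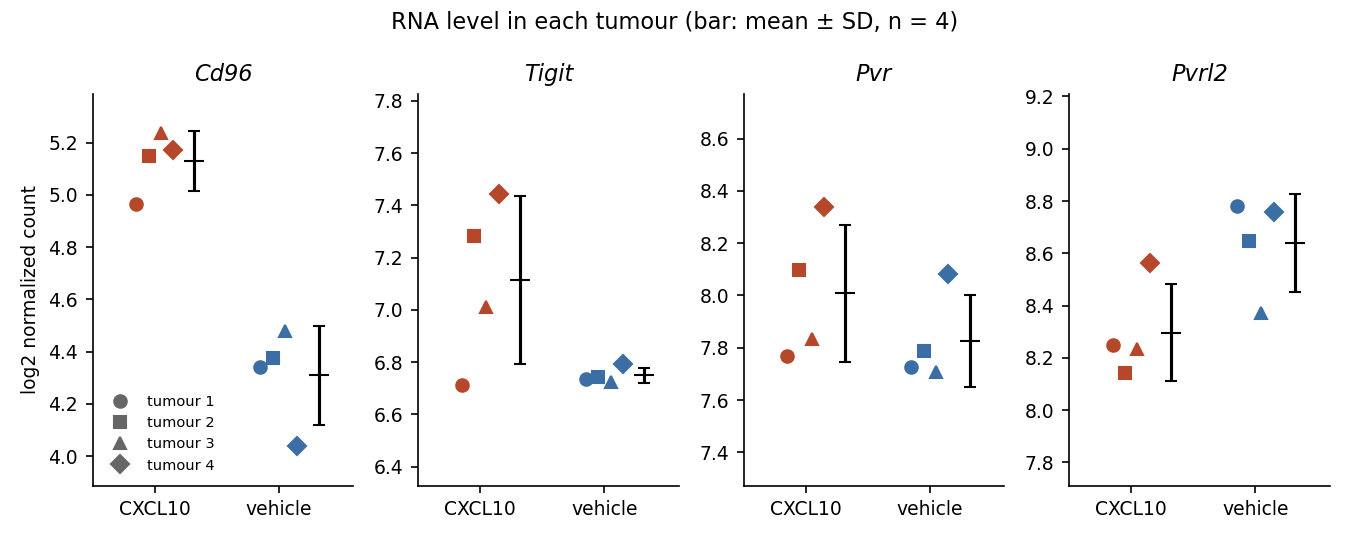
Log2 normalized counts of Cd96, Tigit, Pvr and Pvrl2 in each tumour, CXCL10 left of vehicle in each panel; point shapes give the tumour number, bars the mean ± SD (n = 4), and each y axis spans the same range of log2 units. All 4 CXCL10 tumours lie above all vehicle tumours for Cd96, CXCL10 tumour 1 lies just below the vehicle tumours for Tigit, the groups overlap for Pvr, and CXCL10 tumours 1 to 3 lie below all vehicle tumours for Pvrl2.

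These counts were low: the mean over the 8 tumours was 27.8, and 11 of the 693 genes had a lower one. The 4 CXCL10 tumours gave 144 counts of Cd96 in all (exact 95% Poisson interval 121 to 170) and the 4 vehicle tumours 78 (61.7 to 97.4). On the authors' scaling the ratio of these sums, CXCL10 over vehicle, was 1.76 with an exact 95% interval of 1.32 to 2.34 that covers counting error only. In a single tumour the intervals were wide, for instance 22.7 to 46.3 around the 33 counts of CXCL10 tumour 2 and 14.6 to 34.5 around the 23 counts of vehicle tumour 3, and these overlap. The SD between tumours was 0.12 in CXCL10 and 0.19 in vehicle tumours on the log2 scale, smaller than the 0.24 and 0.33 that counting alone would give at these counts. The SE of 0.13 comes from this spread, moderated across genes by limma. How far the Cd96 counts lay above probe background was not assessed.

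**Figure D2:**
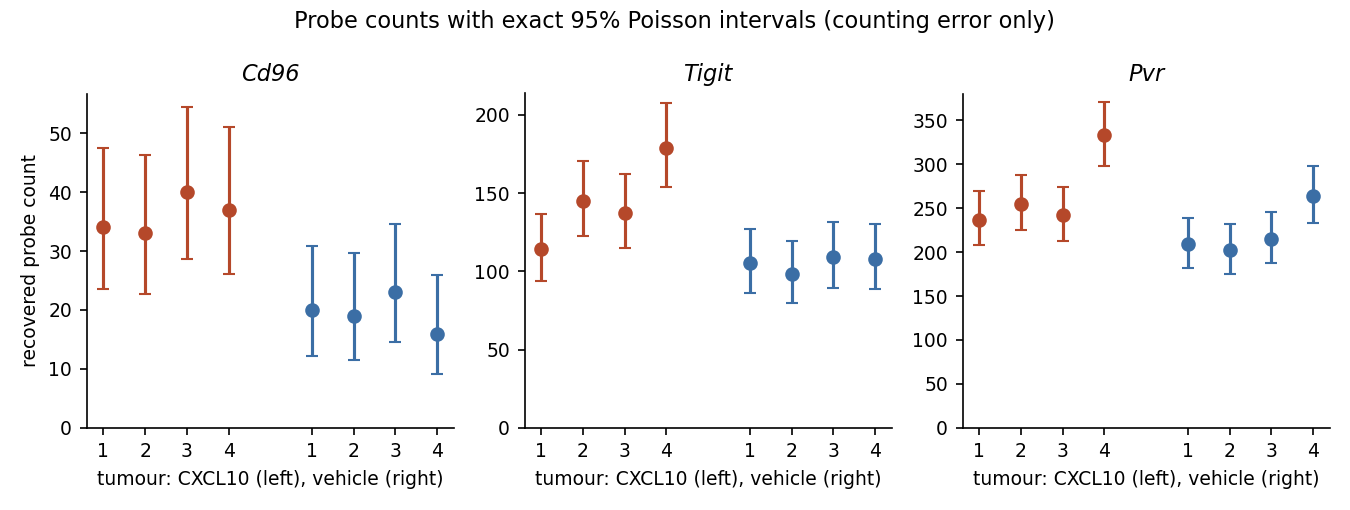
Recovered probe counts of Cd96, Tigit and Pvr (y axis, from 0) in CXCL10 tumours 1 to 4 and vehicle tumours 1 to 4, with exact 95% Poisson intervals as bars. The intervals of Cd96 span a wide range for its counts of 16 to 40, while those of Pvr, at 202 to 333 counts, are narrow for their level.

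Tigit encodes the inhibitory receptor with the higher affinity for PVR. Its probe gave 114, 145, 137 and 179 counts in CXCL10 tumours 1 to 4, against 105, 98, 109 and 108 in vehicle tumours 1 to 4. The log2 levels were 6.71, 7.28, 7.01 and 7.44 in CXCL10 tumours, against 6.73, 6.74, 6.73 and 6.79 in vehicle tumours. On the log2 scale CXCL10 tumours 2, 3 and 4 lay above all vehicle tumours and CXCL10 tumour 1 just below them. In unscaled counts, CXCL10 tumour 1 also lay above all vehicle tumours. Means were 7.11 ± 0.32 in CXCL10 and 6.75 ± 0.03 in vehicle tumours (SD, n = 4 each), a log2 difference of 0.36 (SE 0.16) or 1.29-fold. The vehicle tumours varied less than the 0.14 that counting would give, and the CXCL10 tumours more than the 0.12 that counting would give. The ratio of the summed counts, 575 in CXCL10 and 420 in vehicle tumours, was 1.30 on the authors' scaling (exact 95% interval 1.15 to 1.48, counting error only). The log2 difference was 0.50 without CXCL10 tumour 1 and 0.25 without CXCL10 tumour 4.

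Pvr encodes the ligand of both receptors. Its probe gave 237, 255, 242 and 333 counts in CXCL10 tumours 1 to 4, against 209, 202, 215 and 264 in vehicle tumours 1 to 4. The log2 levels were 7.77, 8.10, 7.83 and 8.34 in CXCL10 tumours, against 7.73, 7.79, 7.71 and 8.08 in vehicle tumours. The groups overlapped: vehicle tumour 4 lay above CXCL10 tumours 1 and 3, and tumour 4 was the highest of each group. Means were 8.01 ± 0.26 in CXCL10 and 7.83 ± 0.17 in vehicle tumours (SD, n = 4 each), a log2 difference of 0.18 (SE 0.16) or 1.14-fold. That difference was of the size of its SE. It was 0.07 without CXCL10 tumour 4 and 0.27 without vehicle tumour 4.

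Over all 693 genes, limma called 2 at an adjusted p under 0.05, which is 0.289% of those tested, Cd96 and Il18r1, a chain of the interleukin-18 receptor. So 1 of the 3 genes was called, which is no evidence about them, since they were chosen with this contrast known. The count of called genes was 0 when any 1 tumour other than vehicle tumour 2 was left out, and 5 without vehicle tumour 2. Groups did not overlap, with CXCL10 higher, in log2 level for 7.79% of all genes and for 1 of the 3. Counting signed differences, so higher in CXCL10 tumours, 8 genes stood above Cd96, 111 above Tigit and 272 above Pvr. Set against the panel median of each tumour, the differences were 0.74 for Cd96, 0.28 for Tigit and 0.10 for Pvr. On that scale Cd96 did not overlap between groups, whereas Tigit and Pvr did. The share of all genes without overlap on that scale was not counted. In whole tumours, a change in the number of cells that carry a receptor and a change in its RNA per cell cannot be told apart.

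**Figure D3:**
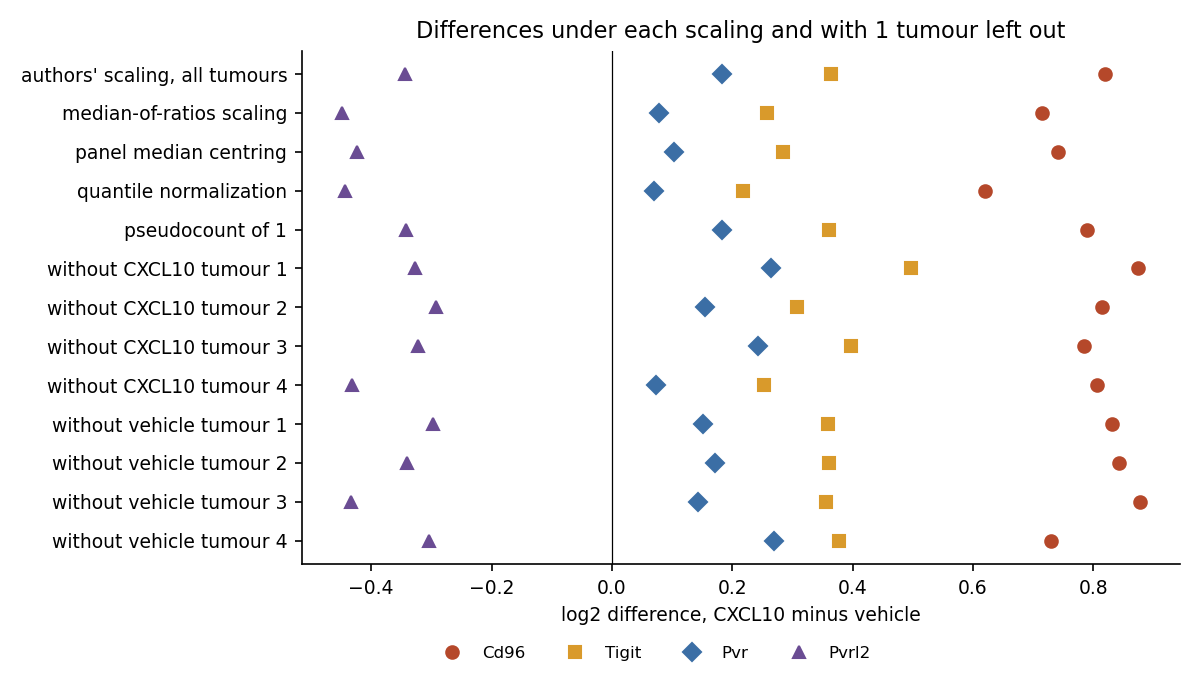
Log2 differences, CXCL10 minus vehicle (x axis), of Cd96, Tigit, Pvr and Pvrl2 under the authors' scaling, 3 other scalings and a pseudocount of 1, and with each tumour left out. Cd96 lies between 0.62 and 0.88, Tigit between 0.22 and 0.50, Pvr between 0.07 and 0.27 and Pvrl2 between -0.45 and -0.29.

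Of 12 symbols listed for CD226, nectins and other partners of the family, older and newer symbols counted apart, Pvrl2 was measured. Pvrl2 encodes nectin-2, the second ligand, and its probe gave 331, 263, 319 and 389 counts in CXCL10 tumours 1 to 4, against 434, 367, 341 and 422 in vehicle tumours 1 to 4. Log2 levels were 8.25, 8.14, 8.23 and 8.56 in CXCL10 tumours, against 8.78, 8.65, 8.37 and 8.76 in vehicle tumours. CXCL10 tumours 1 to 3 lay below all vehicle tumours, and CXCL10 tumour 4 lay above vehicle tumour 3. The log2 difference was -0.34 (SE 0.14) and did not pass the test (limma adjusted p = 0.223 over 693 genes). Set against the panel median of each tumour, Pvrl2 was -0.73 to -0.28 in CXCL10 and -0.23 to 0.12 in vehicle tumours, without overlap. The nearest were CXCL10 tumour 4 at -0.28 and vehicle tumour 3 at -0.23. How many of all genes lacked overlap on that scale was not counted.

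The ligands Pvr and Pvrl2 thus stood on opposite sides of 0. Within a tumour, the log2 level of Pvr minus that of Pvrl2 was -0.48, -0.04, -0.40 and -0.22 in CXCL10 tumours 1 to 4, against -1.05, -0.86, -0.67 and -0.68 in vehicle tumours 1 to 4. The groups did not overlap, and the means differed by 0.53. This difference does not depend on the scaling factor of a tumour, and it was picked out after the values were seen. Endothelial cells, which also carry nectin-2, had lower mean levels of 8 of 8 measured markers in CXCL10 tumours, against 211 of all 693 genes. This held with the other scalings too, with 0 markers at a count of 0. Groups did not overlap, with CXCL10 lower, for 5 of the 8, against 21 of all 693 genes. By limma 6 of the 8 had an unadjusted p under 0.05, against 132 of all 693 genes. The mean log2 level of the 8 markers was 8.15 to 8.57 in CXCL10 and 8.63 to 9.03 in vehicle tumours. The 2 of smallest p, the junction cadherin Cdh5 (-0.53) and the coreceptor Eng (-0.41), did not pass (limma adjusted p of 0.120 and 0.167). The part of endothelial cells in the Pvrl2 values was not tested.

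T cells and NK cells, which carry CD96 and TIGIT, had higher mean levels of their markers in CXCL10 tumours. All 14 measured T cell markers had a higher mean, against 69.6% of all genes, with a median log2 difference of 0.26. By limma 0 passed the test over all genes, and 6 of the 14 had an unadjusted p under 0.05, as did 132 of all 693 genes (19.0%). With median-of-ratios scaling 13 of the 14 had a higher mean and the median was 0.16. The mean log2 level of the 14 was 7.60 to 7.85 in CXCL10 and 7.17 to 7.66 in vehicle tumours. The CD3 chains, which transmit the signal of the T cell receptor, stood at 0.43 for Cd3d, 0.24 for Cd3e, 0.43 for Cd3g and 0.22 for Cd247. The coreceptor genes Cd4, Cd8a and Cd8b1 stood at 0.09, 0.18 and 0.59, each with overlap between groups. Beside Cd3g, the marker of smallest p was the kinase gene Zap70 at 0.37 (limma adjusted p of 0.167 and 0.195). All 18 measured NK cell markers also had a higher mean, with a median of 0.30, and 0 passed limma (5 of the 18 at an unadjusted p under 0.05, against 19.0% of all genes). Groups did not overlap, with CXCL10 higher, for 1 of the 18, against 7.79% of all genes. For Ncr1 of this list they overlapped, at 7.98 to 8.43 in CXCL10 and 7.68 to 8.37 in vehicle tumours. With median-of-ratios scaling 16 of the 18 had a higher mean and the median was 0.20, as it was without CXCL10 tumour 2. Their mean log2 level was 7.10 to 7.53 in CXCL10 and 6.88 to 7.14 in vehicle tumours. Klrd1 and Klrk1, which encode CD94 and NKG2D, led them at 0.63 and 0.55 (limma adjusted p of 0.143 and 0.167). No marker of either list was at a count of 0, and the part of these cells in the receptor values was not tested.

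Against these markers the receptors differed in pattern. Cd96 minus the mean log2 level of the T cell markers was -2.63, -2.57, -2.37 and -2.68 in CXCL10 tumours 1 to 4, against -3.32, -2.98, -2.69 and -3.37 in vehicle tumours 1 to 4. The groups did not overlap, though CXCL10 tumour 4 and vehicle tumour 3 were almost level, and the means differed by 0.52. Against the NK cell markers the means differed by 0.51 without overlap, with CXCL10 tumour 2 at -2.39 and vehicle tumour 3 at -2.40, again almost level. Against the 4 CD3 chains alone they differed by 0.49 with overlap. The share of all genes without overlap against either marker list was not counted. Tigit minus the T cell markers was -0.89, -0.44, -0.59 and -0.41 in CXCL10 tumours 1 to 4, against -0.92, -0.61, -0.44 and -0.61 in vehicle tumours 1 to 4. Those values overlapped and the means differed by 0.07, or by 0.06 against the NK cell markers and 0.03 against the CD3 chains. Cd96 minus Tigit was -1.75, -2.14, -1.78 and -2.27 in CXCL10 tumours 1 to 4, against -2.39, -2.37, -2.24 and -2.75 in vehicle tumours 1 to 4, with overlap. Since Cd96 was chosen for its difference, none of these was tested.

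**Figure D4:**
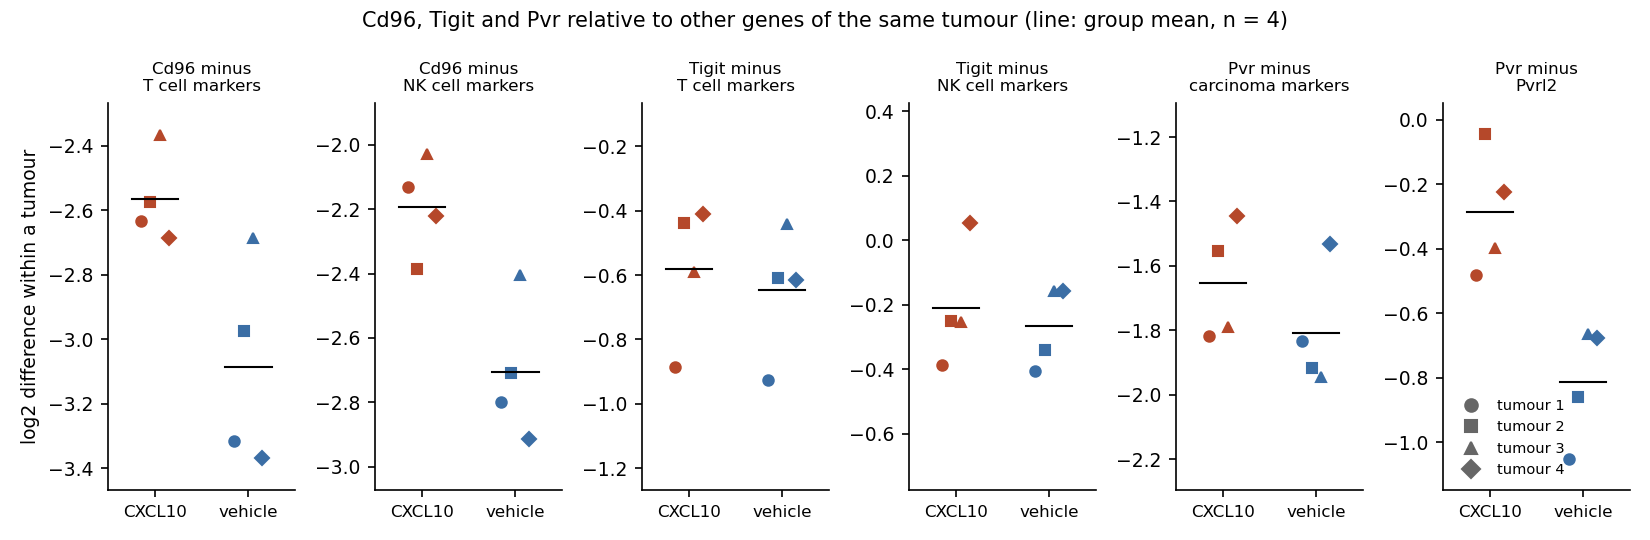
Log2 level of Cd96, Tigit or Pvr minus that of other genes of the same tumour (y axis), CXCL10 left of vehicle; point shapes give the tumour number, lines the group means (n = 4), and each y axis spans the same range. The groups do not overlap for Cd96 against T and NK cell markers, though their nearest tumours are almost level, or for Pvr against Pvrl2. They overlap for Tigit against both lists and for Pvr against carcinoma markers.

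Regulatory T cells, a further cell type known to carry TIGIT, had a higher mean for 6 of 7 markers, against 69.6% of all genes. The median of these markers was 0.37, and median-of-ratios scaling gave 5 of 7 higher and a median of 0.26. The exception on the authors' scaling was Foxp3, their lineage factor, at -0.12 (SE 0.18). Ctla4, at 0.62, and Tnfrsf18, at 0.37, had the smallest p and did not pass (limma adjusted p of 0.0915 and 0.195). Their mean log2 level was 7.37 to 7.67 in CXCL10 and 7.07 to 7.29 in vehicle tumours.

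PVR can be carried by carcinoma cells, myeloid cells and other tissue cells. Carcinoma markers were measured for 9 genes, at counts of 37 or more and went both ways, with 5 higher and 4 lower. Their median was 0.04, or -0.06 with median-of-ratios scaling and -0.04 with panel median centring, and the adhesion gene Epcam stood at 0.35 (limma adjusted p = 0.223). Pvr minus the mean of the carcinoma markers was -1.65 ± 0.18 in CXCL10 and -1.81 ± 0.19 in vehicle tumours (SD, n = 4 each), with overlap. Macrophage and dendritic cell markers had a median of 0.06, with 7 of 12 higher, and Pvr minus their mean was -0.78 ± 0.28 in CXCL10 and -0.89 ± 0.11 in vehicle tumours (SD, n = 4 each). That median was -0.04 with median-of-ratios scaling and -0.02 with panel median centring, -0.17 without CXCL10 tumour 2, 0.13 without CXCL10 tumour 1 and -0.08 without vehicle tumour 1. In that list the growth factor receptor gene Flt3 stood at 0.33 and the lipopolysaccharide coreceptor Cd14 at -0.29 (limma adjusted p of 0.190 and 0.428). A further listed marker, CD209e, was measured at 0.48 (SE 0.41). It was left out of the 12 genes, and of these medians and means, because its symbol was spelled differently. Fibroblast markers had a median of -0.11, with 1 of 6 higher. That median was -0.22 with median-of-ratios scaling, -0.25 without CXCL10 tumour 2, -0.02 without CXCL10 tumour 3, -0.19 without vehicle tumour 1 and -0.02 without vehicle tumour 4. In that list Pdgfrb and Col1a1, at -0.28 and -0.27, had the smallest p (limma adjusted p of 0.291 and 0.322).

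Other inhibitory receptors of T and NK cells had a higher mean in 11 of 11 measured genes, with a median of 0.20, and 0 passed limma (3 of the 11 at an unadjusted p under 0.05, against 19.0% of all genes). Ctla4, and Klrc1 at 0.51 (limma adjusted p = 0.181), which encodes an inhibitory NKG2 chain, had the smallest p. The difference of Cd96 was larger than that of every gene of this list. That of Tigit was exceeded by Ctla4, Klrc1 and Pdcd1, the last at 0.67 (SE 0.25). Cd96 and Tigit were chosen with this contrast known, so this order is a description only. The counting interval of the Cd96 ratio, 1.32 to 2.34, also covers the folds of Ctla4 (1.54) and Klrc1 (1.42). Effector products that these receptors restrain had a higher mean in 10 of 10 genes, with a median of 0.34. Fasl, a death ligand, stood at 0.33 and the granzyme gene Gzmk at 0.90 (limma adjusted p of 0.190 and 0.208). Ifng stood at 0.52 (SE 0.20, limma adjusted p = 0.214). Fasl was the 1 gene of the 10 whose groups did not overlap, with CXCL10 higher, against 7.79% of all genes. The perforin gene Prf1, for instance, was at 6.85 to 7.59 in CXCL10 and 6.34 to 7.59 in vehicle tumours. Signalling genes near the receptors had a higher mean in 6 of 6, with a median of 0.17. Lck, the kinase of T cell receptor signalling, stood at 0.24, Nfkbia, an inhibitor of NF-kB, at 0.22 (limma adjusted p of 0.386 and 0.464) and Inpp5d, the phosphatase recruited by TIGIT, at 0.04. All these medians stand against 0.13 for all genes, and the counts of genes with a higher mean against 69.6% of all genes. Some genes are in more than 1 list, and median-of-ratios scaling changed the medians. Without CXCL10 tumour 4 the median of the inhibitory receptors was 0.13. Median-of-ratios scaling gave a median of 0.10 with 9 of 11 higher for inhibitory receptors, 0.23 with 8 of 10 higher for effector products and 0.06 with 4 of 6 higher for signalling genes.

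**Figure D5:**
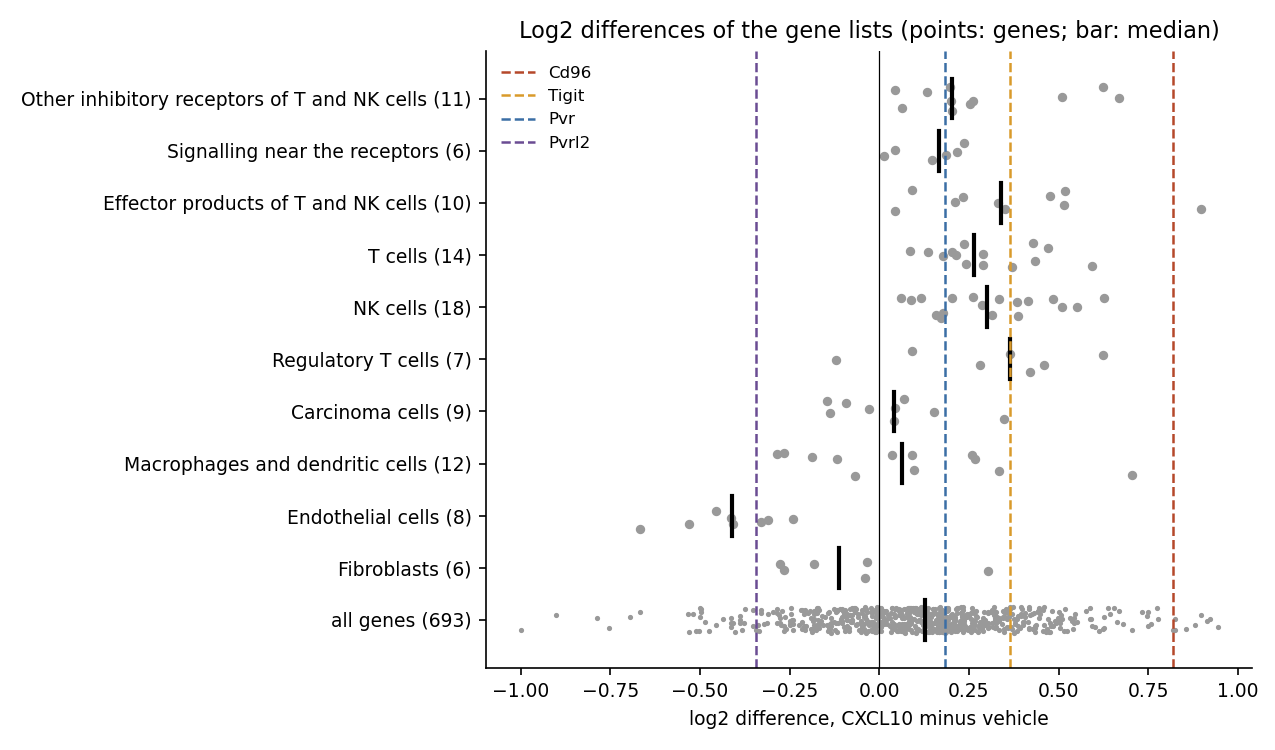
Log2 differences, CXCL10 minus vehicle (x axis), of the measured genes of each list (points, number of genes in brackets) with the list median (bar), and of all 693 genes in the last row. Dashed lines mark Cd96, Tigit, Pvr and Pvrl2, and Cd96 lies to the right of every point of the T cell and NK cell lists. The row of macrophage and dendritic markers leaves out CD209e.

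Genes were also ranked by how closely their levels followed those of Cd96, Tigit or Pvr among tumours of the same group, by Pearson's r of deviations from the group means over the 8 tumours. For Tigit the first 5 were Map3k1 (r = 0.96), Ifngr1 (0.95), Entpd1 (0.95), Cx3cr1 (0.94) and Il6ra (0.93), which encode a stress kinase, an interferon gamma receptor chain, the ectonucleotidase CD39, the fractalkine receptor and an interleukin-6 receptor chain. For Pvr they were Ltbr (0.97), Plaur (0.96), Flt3l (0.94), Nfkb2 (0.93) and Il3ra (0.92), which encode the lymphotoxin receptor, the urokinase receptor, the FLT3 ligand, an NF-kB subunit and an interleukin-3 receptor chain. Tigit and Pvr stood at r = 0.84 with each other, which put Pvr at place 26 among the 692 other genes for Tigit, and at 0.69 with median-of-ratios scaling. These deviations share the scaling factor of each tumour, and those of Tigit come almost wholly from the CXCL10 tumours. With median-of-ratios scaling Ltbr stood at r = 0.69 and place 38 for Pvr, and Flt3l at 0.44 and place 123. Map3k1 stood at 0.72 and place 9 for Tigit. The other 3 genes named for Pvr and 4 for Tigit stayed in the first 5.

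For Cd96 the first 5 were Psma2 (r = 0.96), a proteasome subunit, Smn1 (0.92), Map3k7 (0.92), Nfatc4 (0.88) and Clec4n (0.87). Its deviations were smaller than counting error, so this order describes these 8 values and little more. Within groups Cd96 stood at r = 0.25 with Tigit, -0.29 with Pvr and -0.46 to -0.05 with the 4 CD3 chains. Tigit stood at 0.06 to 0.51 with the CD3 chains.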

How the data were processed

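RNA of 8 whole tumours (4 CXCL10, 4 vehicle, grouped by their titles) was measured with a panel of 782 probes. The deposited values are log2 normalized counts of 693 genes: the authors flagged 55 of 748 endogenous probes as pruned and 6 of 20 housekeeping genes as used in normalization, per the file headers. The labels and files name no instrument or software. Taken out of log2, every value was a whole multiple of 1 step per tumour (0.919 to 1.09, tolerance 0.02 counts). These counts gave the deposited coefficient of variation, in percent, of all 693 genes within that many percentage points. Another 16 value columns carry lane names that match no label, and they were not used, so counts of negative control probes were not used either.

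The test was limma 3.58.1 in R 4.3.3 (lmFit, then eBayes) on the deposited log2 values, with group as the only term and Benjamini-Hochberg adjustment over 693 genes, and the script was checked on simulated data. Plain eBayes follows earlier work on these data, where it was settled on after a trend fit had been seen. Genes, lists and the rule for named genes (list members of smallest p, the 5 genes most like each receptor or ligand, any called gene) were chosen with earlier results of these data known. Some further list members, such as Ifng and Pdcd1, are named outside this rule. Lists are described by counts and medians. Intervals from counts are exact, at 95%, and cover counting error only. Replicate numbers did not pair the tumours (r of deviations -0.318 to 0.247 for equal numbers).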

Additional observations from a re-analysis of the deposited data

Results flagged for a closer look

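Of 76 sets of 4 tumours checked, in 1 the highest or lowest tumour lay further from its nearest neighbour than Dixon's critical share of the range, where chance gives about 1 in 20. Vehicle tumour 4 stood high for Pvr minus the panel median, at -0.57 on the log2 scale, against -0.96 to -0.90 in the other 3 vehicle tumours.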

How the results depend on the processing

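Limma called 2 genes on the authors' scaling, and the same count with a pseudocount of 1 and with a minimum mean count of 20. It called 0 with panel median centring, median-of-ratios scaling, a minimum mean count of 50 (which leaves out Cd96), a mean-variance trend, voom on the recovered counts and the replicate block, and 1 with quantile normalization. With 1 tumour left out it called 0 to 5. The replicate block left the differences of Cd96, Tigit and Pvr at 0.82, 0.36 and 0.18. Cd96 stood at 0.62 with quantile normalization, a shift larger than its SD between tumours, and at 0.73 to 0.88 with 1 tumour left out. Cd96, Tigit, Pvr and Pvrl2 kept their direction under every scaling, with a pseudocount of 1, with the block and with any 1 tumour left out. With median-of-ratios scaling the median of the signalling genes was 0.061 and that of the carcinoma markers -0.064, and the carcinoma median was -0.039 with panel median centring. With 1 tumour left out the carcinoma median ran from -0.035 to 0.087 and that of macrophage and dendritic markers from -0.17 to 0.13. Of the 5 genes most like each gene, Spearman's rho shared 2 for Cd96, 2 for Tigit and 1 for Pvr, and median-of-ratios scaling shared 5, 4 and 3 in that order. The causes of these shifts were not tested. Low counts limit Cd96 more than Tigit or Pvr, since its counting error was larger. Counting alone would give Cd96 a log2 SD of 0.24 in CXCL10 and 0.33 in vehicle tumours. The same SDs are 0.12 and 0.14 for Tigit and 0.088 and 0.097 for Pvr. The spread of Cd96 within each group was below this counting error.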
